A study of Mus musculus with 14 samples.

Results

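The ADAMTS genes described here are 9 listed members of the family of secreted zinc proteases named for a disintegrin and metalloproteinase with thrombospondin motifs: Adamts1, Adamts2, Adamts4, Adamts5, Adamts9, Adamts10, Adamts12, Adamts15 and Adamts20. They were chosen by symbol, as every probe set that the platform annotation gives to one of these names. Of the 9 genes, 8 had at least 1 such probe set, 16 of the 45101 probe sets in all, and Adamts2 had none and is not described further by values. Probe sets were tested if their signal exceeded the 40th percentile of the array's values on 4 or more of the 14 arrays, counted over all ages together. All 8 genes passed through 14 probe sets, each above that level on all 14 arrays. The other 2, the second probe set of Adamts12 and the fourth of Adamts5, stayed below it on every array, with log2 values of 2.47 to 2.89. The 8 genes are among 13579 genes tested.

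Expression was measured on Affymetrix mouse arrays in muscle precursor cells of C57BL/6 mice, which carried no treatment or transgene label. Cells bound to muscle fibres were released with enzymes and sorted as positive for CD29 and Cxcr4 and negative for CD45, Ter119 and Sca-1. Young mice of 2 months gave 5 arrays, middle-aged mice of 12 months 4 arrays and aged mice of 24 months 5 arrays. The study asks which transcripts change with age in these cells. No label tells if an array stands for 1 mouse or a pool, so the p-values measure the spread between these samples, which may be technical. In sorted cells, fewer cells of a type and less RNA per cell cannot be told apart.

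ADAMTS proteases are made as inactive proenzymes, are cut by furin-like convertases on their way out of the cell, and act on the extracellular matrix through a zinc-binding catalytic domain and a tail of thrombospondin repeats that sets the substrate. Adamts1, Adamts4, Adamts5, Adamts9, Adamts15 and Adamts20 can cleave the large hyaluronan-binding proteoglycans such as versican and aggrecan, Adamts2 trims the amino end of fibrillar procollagens, Adamts10 works on fibrillin microfibrils and Adamts12 on cartilage oligomeric matrix protein. In the muscle lineage, removal of the versican-rich pericellular matrix by these enzymes is known to accompany the fusion of myoblasts. Tissue inhibitors of metalloproteinases, above all Timp3, block several of them.

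Adamts9 and Adamts20 are the members with a GON domain, each other's closest relatives in the family, and with age they parted: Adamts20 fell and Adamts9 did not pass the test. Their promoters are shown for that reason, as the 250 bases before the transcription start in RefSeq (build GRCm38.p6). Adamts20 lies on the minus strand, with the window at chr15:94404351-94404600, and Adamts9 on the minus strand at chr6:92943535-92943784. Capitals mark each E-box, the sequence CANNTG to which myogenic factors such as MyoD bind, which reads alike on both strands.
Adamts20: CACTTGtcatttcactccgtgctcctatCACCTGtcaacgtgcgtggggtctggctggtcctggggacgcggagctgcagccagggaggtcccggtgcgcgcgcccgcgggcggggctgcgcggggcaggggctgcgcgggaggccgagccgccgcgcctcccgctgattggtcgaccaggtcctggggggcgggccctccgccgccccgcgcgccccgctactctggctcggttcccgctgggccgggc
Adamts9: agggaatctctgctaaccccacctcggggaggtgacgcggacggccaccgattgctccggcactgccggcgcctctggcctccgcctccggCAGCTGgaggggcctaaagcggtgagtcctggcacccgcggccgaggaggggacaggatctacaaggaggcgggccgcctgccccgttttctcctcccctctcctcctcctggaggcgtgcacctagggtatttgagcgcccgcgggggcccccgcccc
The Adamts20 window held 2 E-boxes near its far end and the Adamts9 window 1. Among all 32851 windows of this length in the table, 66.2% held at least 1 and 31.8% at least 2, and a match in letters is not a binding site. Of the other members in the table, Adamts1 had 0, Adamts2 had 2 and Adamts12 had 1. All 5 windows were rich in G and C, at 63.2% to 78.0%, against a median of 52.4% over all windows. In the RefSeq table, Adamts1 and Adamts5 are next to each other on chromosome 16 with no other protein-coding gene between their starts, and Adamts15 is likewise next to Adamts8 on chromosome 9.

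The arrays also fell into 2 sets that crossed the ages, defined after earlier results by the sign of the leading principal component after age means were subtracted (31.5% of the variance). Set 1 held 8 arrays (young 1, 3 and 4, middle-aged 2, 3 and 4, aged 1 and 2) and set 2 held 6 (young 2 and 5, middle-aged 1, aged 3, 4 and 5). A sign of RNA quality, the difference between 3' and 5' control probe sets of Gapdh and Actb, was 3.54 ± 0.51 on aged arrays and 4.30 ± 0.54 on young arrays (SD, n = 5 each, exact two-sided permutation p = 0.0714). The 10 satellite cell markers, Pax7 and Myod1 among them, exceeded the 40th percentile on every array. Markers of cells the sort should leave out were mixed. Of 8 leukocyte markers, Ptprc, which encodes CD45, and Itgam were below it on every array, while Csf1r, Cd14 and Lyz2 were above it on all 14. Of 8 endothelial markers, Pecam1 was below it on every array, while Kdr, Tek, Cldn5, Esam and Egfl7 were above it on all 14. The median array intensity ran from 19.0 to 21.2, and precision is limited by how many arrays each age has.

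Among the 8 measured ADAMTS genes, Adamts4 rose and Adamts20 fell in aged cells, and the other 6 did not pass the test. Both calls were also made in middle-aged against young cells, and none was made between aged and middle-aged cells. A gene was called at a Benjamini-Hochberg adjusted p under 0.05 over all 13579 genes in limma, a linear model with moderated variances. By that rule 4.30% of all genes were called in aged against young cells (3.05% rose and 1.25% fell) and 2.97% in middle-aged against young cells (1.75% rose and 1.22% fell). At an unadjusted p under 0.05, 3 of the 8 (Adamts4, Adamts12 and Adamts20) passed in aged against young cells and the same 3 in middle-aged against young cells, where 16.6% and 16.3% of all genes did. The groups did not overlap for 2 of the 8 in either comparison, against 5.45% of all genes for aged and 8.70% for middle-aged against young cells. Between aged and middle-aged cells 0 of the 8 parted, against 2.50% of all genes (1.41% higher and 1.08% lower). The median log2 change of the 8 genes was -0.21 in aged against young cells, against -0.05 over all genes, and 0.00 in middle-aged against young cells, against -0.04.

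**Figure D1:**
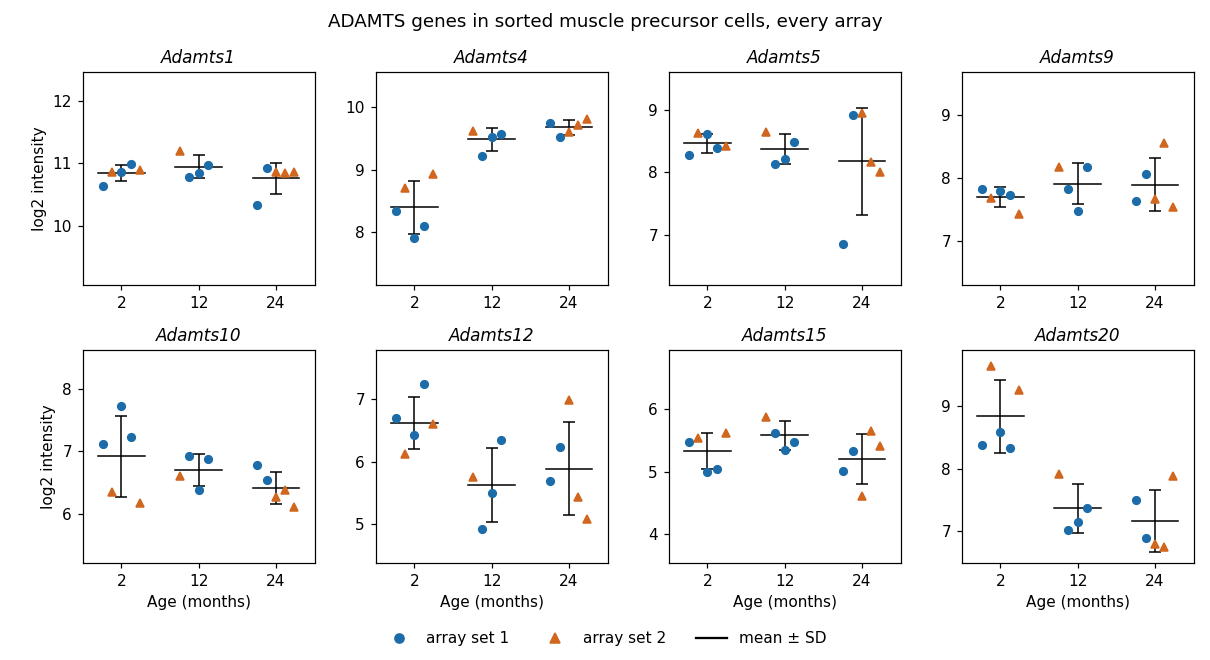
Log2 intensity (vertical axis, each panel spanning the same range) of the probe set that stands for each of the 8 ADAMTS genes, by age in months. Each symbol is 1 array, circles for array set 1 and triangles for array set 2, and lines give the mean with SD (n = 5, 4 and 5). All middle-aged and aged arrays lie above the young ones for Adamts4 and below them for Adamts20, while the ages overlap for the other 6 genes.

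Adamts4, the first aggrecanase to be named, was the 1 member called higher. Its representative probe set read 8.34, 8.70, 7.91, 8.10 and 8.93 (log2 intensity) on the 5 young arrays, 9.61, 9.22, 9.53 and 9.57 on the 4 middle-aged arrays and 9.74, 9.51, 9.60, 9.71 and 9.80 on the 5 aged arrays. Every aged and every middle-aged array was thus higher than every young one, and the young arrays were the most spread (SD 0.42, against 0.18 at 12 and 0.11 at 24 months). Groups parted in this way, with the older one higher, in 3.48% of all genes for aged against young and in 3.62% for middle-aged against young. Adamts4 (Entrez 240913) averaged 9.67 ± 0.11 in aged and 8.40 ± 0.42 in young cells (SD, n = 5 each), a log2 change of 1.28 ± 0.18 (SE) or 2.42-fold (limma adjusted p = 0.000735). In middle-aged cells it averaged 9.48 ± 0.18 (SD, n = 4), a change against young cells of 1.09 ± 0.19 or 2.12-fold (limma adjusted p = 0.0056). Aged minus middle-aged cells gave 0.19 ± 0.19, with a 95% interval of -0.21 to 0.59.

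A second probe set of Adamts4 told the same of the older against the young ages. It read 8.20, 8.52, 7.83, 8.02 and 8.46 on young, 9.57, 9.51, 9.33 and 9.70 on middle-aged and 9.54, 9.55, 9.46, 9.10 and 8.69 on aged arrays. Again no young array reached an older one, and the lowest aged values were those of arrays 5 and 4. Unlike on the first probe set, the aged arrays were the most spread (SD 0.37, against 0.29 in young and 0.15 in middle-aged cells). In a test of every probe set, its log2 change was 1.06 ± 0.19 in aged against young cells (limma adjusted p = 0.00522) and 1.32 ± 0.20 in middle-aged against young cells (limma adjusted p = 0.00309). In that test 3.10% of 23887 probe sets were called in aged against young cells and 1.86% in middle-aged against young cells. Aged minus middle-aged was 0.19 on the first probe set and -0.26 on the second, and neither passed.

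Adamts20 was the member that fell. Besides the GON domain, it is known from the mouse belted mutant, whose white belt marks its need in the spread of pigment cell precursors. It read 8.37, 9.63, 8.58, 8.33 and 9.25 on young, 7.91, 7.02, 7.15 and 7.37 on middle-aged and 7.50, 6.89, 6.79, 6.76 and 7.88 on aged arrays. At each age arrays of set 2 included the highest value, but among aged arrays they also held the lowest values, 6.79 and 6.76. Set 2 averaged higher than set 1 in young and middle-aged cells, but 7.14 against 7.20 in aged cells. No older array reached the lowest young one. Groups parted in this way, with the older one lower, in 1.97% of all genes for aged against young and in 5.07% for middle-aged against young. Adamts20 (Entrez 223838) averaged 7.16 ± 0.50 in aged and 8.83 ± 0.58 in young cells (SD, n = 5 each), a log2 change of -1.67 ± 0.29 (limma adjusted p = 0.00359). Middle-aged cells averaged 7.36 ± 0.39 (SD, n = 4), a change against young cells of -1.47 ± 0.31 or 2.77-fold lower (limma adjusted p = 0.0174). Aged minus middle-aged cells gave -0.20 ± 0.31, with a 95% interval of -0.85 to 0.45. A single probe set carries this gene, so no second one stands beside it.

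Most of either change lay between 2 and 12 months as measured, but the test of the late step minus the early step called neither. That difference was -0.89 ± 0.33 for Adamts4 (limma adjusted p = 0.31) and 1.27 ± 0.54 for Adamts20 (limma adjusted p = 0.373). In the test of every probe set, the second one of Adamts4 gave -1.58 ± 0.35 (limma adjusted p = 0.138), also uncalled. In limma, 0 of 8 members and 0% of all genes passed in this comparison, as also in aged against middle-aged cells. At an unadjusted p under 0.05, 2 members passed in the late minus the early step and 0 in aged against middle-aged cells, against 11.9% and 9.62% of all genes.

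Separate fits within each array set gave different sizes for both changes, and the difference between the sets was not tested. The sets were drawn from these same values, so the split is no independent check of either change. Set 2 holds 2 young and 3 aged arrays. Aged minus young for Adamts4 was 1.51 ± 0.20 among arrays of set 1 and 0.89 ± 0.18 among arrays of set 2, where the young arrays averaged 8.81, against 8.12 in set 1. For Adamts20 it was -1.23 ± 0.22 in set 1 and -2.30 ± 0.39 in set 2, with young means of 9.44 and 8.43 in sets 2 and 1. Both were called in set 1 (limma adjusted p = 0.00386 and 0.0123) and neither in set 2 (limma adjusted p = 0.176 and 0.122), where 21 of all genes passed. Middle-aged minus young in set 2 rests on 1 middle-aged array and was 0.80 ± 0.25 for Adamts4 and -1.53 ± 0.52 for Adamts20, uncalled. The fall of Adamts20 in middle-aged cells also lost its call without middle-aged array 2, 3 or 4 (limma adjusted p = 0.0502, 0.0689 and 0.0528).

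Of the other members that can cleave aggrecan or versican, Adamts1, Adamts5, Adamts9 and Adamts15 were not called in either comparison with young cells. Adamts5, the second main aggrecanase, read 8.27, 8.62, 8.61, 8.39 and 8.43 on young, 8.64, 8.14, 8.22 and 8.48 on middle-aged and 6.85, 8.91, 8.95, 8.17 and 7.998 on aged arrays. The ages overlapped, and aged cells were the most spread, with aged array 1 the lowest and arrays 2 and 3 the highest of all 14. Its log2 change was -0.29 ± 0.31 in aged against young cells (95% interval -0.94 to 0.36), and the other 2 probe sets that passed the filter gave -0.07 ± 0.19 and -0.34 ± 0.31. Adamts1, an early-response versicanase that also restrains vessel growth, read 10.33, 10.92, 10.86, 10.85 and 10.85 on aged arrays, against 10.64 to 10.99 on young arrays. Again aged array 1 was the lowest of all. The log2 change of Adamts1 was -0.09 ± 0.14 in aged and 0.10 ± 0.15 in middle-aged against young cells, with intervals of -0.39 to 0.22 and -0.22 to 0.41, so a 2-fold change lies outside both.

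Adamts15, a versicanase, averaged 5.21 ± 0.40 in aged (SD, n = 5), 5.58 ± 0.23 in middle-aged (n = 4) and 5.33 ± 0.29 in young cells (n = 5). Its log2 change was -0.13 ± 0.20 in aged and 0.25 ± 0.21 in middle-aged against young cells. The ages overlapped, and aged array 3 was the lowest at 4.62. Its chromosomal neighbour Adamts8, from the list of other family members, averaged 5.85 ± 0.40 in aged, 6.37 ± 0.19 in middle-aged and 5.75 ± 0.16 in young cells. All middle-aged values of Adamts8 lay above the young ones, but the difference of 0.63 ± 0.19 did not pass (limma adjusted p = 0.0947).

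Adamts9, a versicanase that also acts at the base of cilia, was measured by 3 probe sets that did not move alike. The representative one gave 0.20 ± 0.20 in aged against young cells and 0.22 ± 0.21 in middle-aged against young cells. Another read 5.00, 6.45, 5.62, 6.30 and 6.09 on young, 6.93, 5.93, 5.23 and 6.78 on middle-aged and 6.37, 6.30, 7.10, 7.08 and 7.28 on aged arrays. The 3 highest of these 14 values were on aged arrays, and the ages overlapped through young array 2. This probe set differed by 0.94 ± 0.34 between aged and young cells, and it did not pass over all probe sets (limma adjusted p = 0.187). The third gave 0.02 ± 0.21. The annotation names 1 gene for all 3, and which transcript ends each one reads was not tested.

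**Figure D2:**
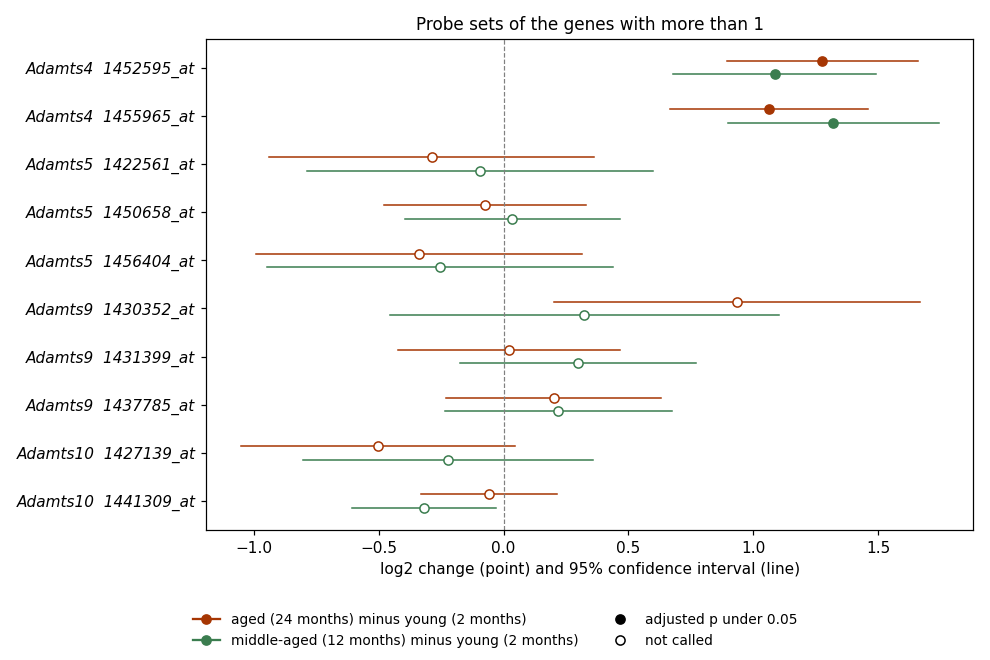
Log2 change against young cells (horizontal axis) with its 95% confidence interval for each probe set of the 4 genes with several, in aged (upper line of each pair) and middle-aged cells (lower line). Filled points passed at an adjusted p under 0.05 over all probe sets: both probe sets of Adamts4 did, at 1.06 to 1.32, and none of Adamts5, Adamts9 or Adamts10 did.

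The members that act on other matrix proteins also gave no call. Adamts12 read 6.70, 6.13, 6.43, 7.25 and 6.60 on young, 5.76, 4.92, 5.50 and 6.35 on middle-aged and 5.69, 6.24, 6.98, 5.44 and 5.08 on aged arrays. The older arrays were lower on average but overlapped the young ones at each age. Its log2 change was -0.74 ± 0.34 in aged (95% interval -1.45 to -0.02, limma adjusted p = 0.285) and -0.99 ± 0.36 in middle-aged against young cells (-1.75 to -0.23, limma adjusted p = 0.171). These intervals are not adjusted for the number of genes. Adamts12 had the widest standard error of the 8 genes.

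Adamts10, mutated in human Weill-Marchesani syndrome, had a higher mean in set 1 than in set 2 at each age. Its aged arrays read 6.79 and 6.54 in set 1 and 6.27, 6.38 and 6.11 in set 2, while young arrays read 7.12, 7.73 and 7.22 in set 1 and 6.35 and 6.18 in set 2. The ages overlapped, and 12-month arrays ran from 6.38 to 6.93. The log2 change was -0.50 ± 0.26 in aged against young cells (95% interval -1.05 to 0.04, limma adjusted p = 0.348). A second probe set, with a narrower spread, gave -0.06 ± 0.13 there and -0.32 ± 0.14 in middle-aged against young cells, uncalled.

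**Figure D3:**
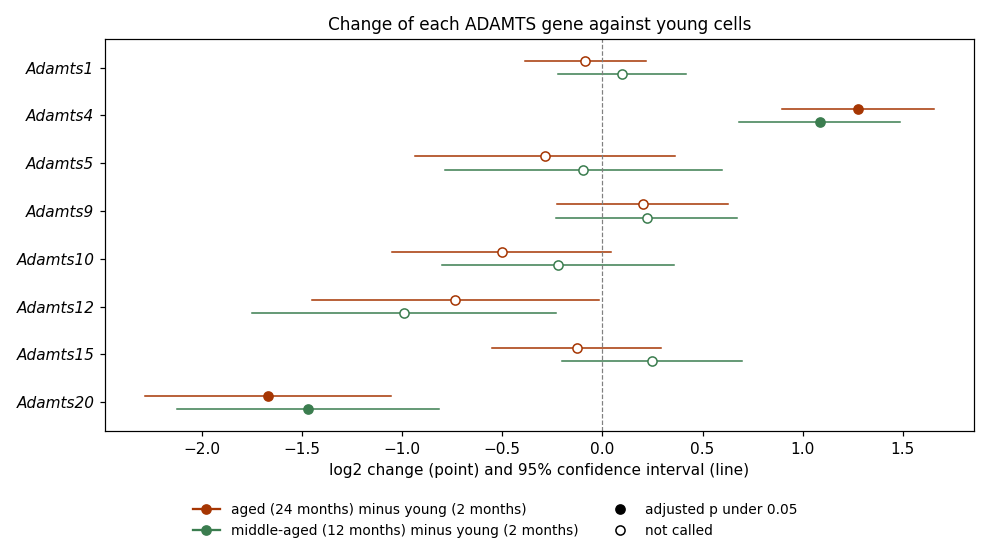
Log2 change of each of the 8 ADAMTS genes (horizontal axis) with its 95% confidence interval, in aged (upper line of each pair) and middle-aged cells (lower line) against young cells. Filled points passed at an adjusted p under 0.05: Adamts4 lies near 1.3 and 1.1 and Adamts20 near -1.7 and -1.5, while the points of the other 6 genes are open.

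The genes most like Adamts4 across all 14 arrays, outside the family, were Nfkbie, an inhibitor of NF-kappaB (Pearson r = 0.97), Synpo, an actin-binding protein (0.96), and Dram1, a lysosomal membrane protein (0.96). All 3 rose in aged against young cells, by 1.40, 2.50 and 0.82 on the log2 scale. Those most like Adamts20 were Mdfic (0.90), Mcl1, an inhibitor of cell death (0.90), and Ryr3, a calcium release channel (0.89). Of these, Mdfic and Ryr3 fell by 0.82 and by 1.31, and Mcl1 had -0.20, uncalled. These likenesses describe 14 arrays that share age groups and array sets. Genes picked this way for a member that differs with age tend to share its change, so their changes are no separate result. With each age's mean subtracted, other genes led. They were Fam199x, Ell2 and Hnrnpr for Adamts4 (0.90, 0.89 and 0.89) and Nnmt, Hnrnpf and Peli1 for Adamts20 (0.91, 0.89 and 0.88). None of them was called between aged and young cells. The representative and the second probe set of Adamts4 correlated at 0.86 over all arrays, but at 0.40 with age means subtracted. These likenesses were taken from the representative probe set, and those of the second were not tested.

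Of 10 further ADAMTS genes, 4 were measured and 0 passed in either comparison with young cells. Adamts3, a procollagen peptidase like Adamts2, had a log2 change of 0.42 ± 0.27 in aged against young cells, Adamts7, which like Adamts12 cleaves cartilage oligomeric matrix protein, -0.25 ± 0.17, and Adamts16 -0.23 ± 0.16. Adamts6, Adamts18 and Adamts19 lay below the filter, and Adamts13, Adamts14 and Adamts17 had no probe set of their own. The ADAMTS-like proteins share the thrombospondin repeats but lack the protease domain. Of 6 measured, Thsd4, which helps fibrillin microfibrils assemble, fell in aged cells and 0 rose, where 1.25% of all genes fell and 3.05% rose. It averaged 5.72 ± 0.24 in aged and 6.38 ± 0.29 in young cells (SD, n = 5 each), a log2 change of -0.66 ± 0.17 (limma adjusted p = 0.0389) with no overlap. Adamtsl2 had -0.83 ± 0.25 (limma adjusted p = 0.0799), Adamtsl3 0.89 ± 0.31 (0.139) and Adamtsl4 0.37 ± 0.24, none of them called.

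Of the large hyaluronan-binding proteoglycans, Vcan, Acan and Bcan were measured and 0 were called. Versican, encoded by Vcan, averaged 7.03 ± 0.82 in aged and 7.09 ± 0.66 in young cells (SD, n = 5 each), a log2 change of -0.06 ± 0.39. Its aged values ran from 6.29 to 8.44 and its young values from 6.21 to 8.01, and the 95% interval of the change was -0.89 to 0.78. Bcan had -0.37 ± 0.15 and Acan -0.34 ± 0.16, each from a low level, and Acan was below the 40th percentile on 3 arrays. Over all genes, 3.05% rose in aged and 1.75% in middle-aged against young cells, with median log2 changes of -0.05 and -0.04. Among 12 measured other substrates, 4 rose and 0 fell in each comparison with young cells, with a median of 1.04 in aged and 1.29 in middle-aged cells. They were Comp, cartilage oligomeric matrix protein (3.88 ± 0.47 in aged against young cells), Thbs1, thrombospondin 1 (2.03 ± 0.31), Fmod, fibromodulin (1.86 ± 0.23), and Dcn, decorin (1.27 ± 0.18). Comp and Fmod are also in the list of tenocyte markers and Dcn in that of fibro-adipogenic markers, so these counts and those of the markers share genes. Fn1 had 1.51 ± 0.42 (limma adjusted p = 0.0546), Bgn 1.04 ± 0.34 and Col3a1 -0.88 ± 0.28, uncalled. Of the hyaluronan matrix genes, 0 of 6 passed, and Has1, Has2 and Tnfaip6 had 0.81 ± 0.31, 0.60 ± 0.25 and 0.54 ± 0.38.

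Of 7 measured genes for inhibition and clearance, 3 rose in aged and in middle-aged against young cells and 0 fell, with a median of 1.04 in aged cells. The shares of all genes that rose were 3.05% and 1.75%, and the median over all genes was -0.05 in aged cells. Timp3, the main physiological inhibitor of Adamts4 and Adamts5, read 9.54, 8.90, 8.89, 8.60 and 9.01 on young, 9.79, 10.81, 10.33 and 10.36 on middle-aged and 10.66, 10.44, 9.80, 10.13 and 10.00 on aged arrays. No young array reached an older one. Its log2 change was 1.22 ± 0.22 in aged against young cells (limma adjusted p = 0.00495), close in size to that of Adamts4 on the log2 scale. Timp1 rose by 2.50 ± 0.20 and Timp2 by 0.96 ± 0.22. Reck, a membrane-bound inhibitor, had 1.04 ± 0.32, Timp4 2.54 ± 0.83, and Lrp1, the receptor that clears Adamts4 and Adamts5, 0.48 ± 0.36, none of them called. Timp4 was above the 40th percentile on 9 of 14 arrays, and its young values, from 3.52 to 4.26, lay near or below that level. Its aged values were uneven, at 7.11 and 10.10 on arrays 2 and 3, against 4.66, 4.75 and 4.87 on arrays 1, 4 and 5. Genes of maturation gave 0 calls of 6: Furin had -0.25 ± 0.12, Pcsk6 0.69 ± 0.36 and Pofut2, which fucosylates thrombospondin repeats, 0.56 ± 0.23.

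**Figure D4:**
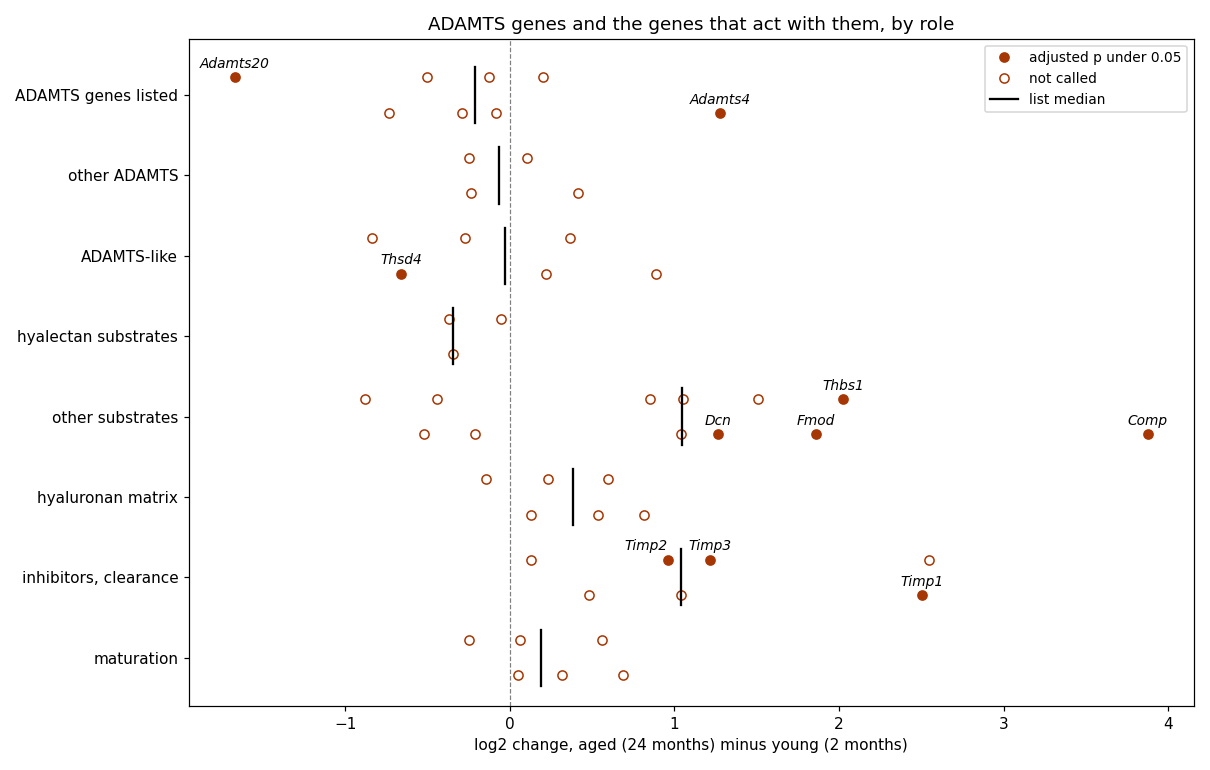
Log2 change in aged against young cells (horizontal axis) of every measured gene in the list of ADAMTS genes and in 7 lists of genes by role, with 1 point per gene and a bar at each list's median. Filled points, named, passed at an adjusted p under 0.05. The filled points of the substrates and inhibitors all lie to the right, from 0.96 to 3.88.

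Markers of several cell types were called in the same comparisons as Adamts4 and Adamts20. Of all genes, 3.05% rose and 1.25% fell in aged against young cells, and 1.75% rose and 1.22% fell in middle-aged against young cells. Of 8 tenocyte markers, 7 rose in aged and 7 in middle-aged against young cells. Their summed intensity ran from 29577 to 62471 on aged, 35182 to 68728 on middle-aged and 3920 to 12019 on young arrays, while Scx, the tendon transcription factor, was above the 40th percentile on 7 of 14 arrays. Of 9 fibro-adipogenic markers 2 were called higher in aged and 2 in middle-aged against young cells. The 9 summed to 17880 to 33225 on aged, 22887 to 34341 on middle-aged and 13735 to 18471 on young arrays. Such a sum weighs the brightest genes most, here Dcn. In each comparison 8 of the 9 were higher, while Dpt was lower and uncalled (-0.46 ± 0.15 in aged and -0.44 ± 0.16 in middle-aged cells). Satellite cell markers, 3 of 10 called lower in aged and 0 in middle-aged cells, summed to 7357 to 10429 on aged, 7645 to 10694 on middle-aged and 10307 to 13110 on young arrays. Myofibre markers, 9 of 10 called higher in aged and 0 in middle-aged cells, summed to 3149 to 7960 on aged, 1593 to 3502 on middle-aged and 839 to 2380 on young arrays. Of 9 pericyte and smooth muscle markers 1 was called, Pdgfrb. It rose by 2.77 ± 0.32 in aged and 2.74 ± 0.33 in middle-aged cells. The sum of the 9 ran from 2832 to 4798 on aged, 2504 to 3606 on middle-aged and 2381 to 4689 on young arrays. That sum leans on bright genes such as Acta2 (-0.24 ± 0.33 in aged against young cells). Gene by gene, 5 of the 9 were higher and 4 lower in aged against young cells. Their mean log2 value was 7.72 in aged, 7.40 in middle-aged and 6.96 in young cells. Of 6 measured leukocyte markers 1 was called, Cd14, which rose by 1.33 ± 0.25 in aged and 1.30 ± 0.27 in middle-aged cells. The leukocyte sum ran from 356 to 923 on aged, 277 to 479 on middle-aged and 205 to 316 on young arrays. Of 6 measured endothelial markers, Tek fell by 1.18 in aged cells and 0 were called in middle-aged cells. The endothelial sum ran from 225 to 912 on aged, 259 to 349 on middle-aged and 385 to 521 on young arrays. Its median on aged arrays was 247, below the lowest young sum. Aged array 3 had the highest Kdr, Cldn5 and Esam of all arrays, at 7.31, 7.83 and 7.55. Of 3 measured Schwann cell markers 0 were called, with sums of 212 to 1325 on aged, 288 to 650 on middle-aged and 272 to 552 on young arrays. Their part in the changes of Adamts4 and Adamts20 was not tested. Once the RNA quality measure entered the model as a covariate, both genes kept their calls in aged against young cells, at 1.12 ± 0.22 and -1.89 ± 0.36 (limma adjusted p = 0.0154 and 0.0146).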

How the data were processed

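RNA of 14 sorted samples was prepared with an Affymetrix 3'IVT kit, per the labels' protocols, and read on Affymetrix mouse arrays. The deposited values are linear intensities, judging by their range, and RMA, a method that normalizes arrays and summarises probe sets, is named per the submitters' processing notes. No source used here gives the version of RMA or a genome build. The log2 of the deposited intensities was taken without further normalization. Symbols came from the platform annotation, and all 8 measured members matched RefSeq by Entrez identifier. Of 34945 probe sets with 1 symbol, 23887 lay above the 40th percentile of their array (log2 3.79 to 3.96) on at least 4 arrays. The one with the highest mean stood for each of 13579 genes.

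All arrays entered 1 limma model (limma 3.58.1, R 4.3.3) with age as its factor and two-sided moderated tests, also run per probe set. Errors of changes are moderated SE, with 95% intervals unadjusted for multiplicity. The model was tested on simulated data. Members, lists and tests were chosen with earlier results of these data known. Named genes are all members, genes of the 7 role lists called against young cells, up to 3 further genes per role list with the smallest p in aged against young cells, and the 3 genes most correlated with each called member. Cell type markers were summarised by list. Adamts8, a chromosomal neighbour, and the single markers were named after their values were seen. Alternatives are given in the closing section.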

Additional observations from a re-analysis of the deposited data

Results flagged for a closer look

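Adamts1 on aged array 1, at 10.33, stood apart from the other 4 aged arrays, which lay between 10.85 and 10.92, so that its gap to the nearest one took up 0.89 of the group's range. It was 1 of 42 groups of 4 or 5 arrays checked over the 14 member probe sets, and chance alone marks about 1 group in 20. The same array was also the lowest of all 14 on the representative probe set of Adamts5, at 6.85. On another kept probe set of that gene aged array 5 was the lowest, at 6.65.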

How the results depend on the processing

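The count of 2 called members, Adamts4 and Adamts20, in aged against young cells was kept with the same genes under 26 of 27 alternatives, and fell to 0 among arrays of set 2. In middle-aged against young cells it was kept under 23 of 27, was 0 among arrays of set 2 and ranged from 1 to 2 when each array was left out. The lost call was that of Adamts20. For aged against middle-aged cells and for the late minus the early step, 0 members were called under every alternative run. With each array left out, Adamts4 ranged from 1.16 to 1.41 and Adamts20 from -1.85 to -1.47 in aged against young cells. Their direction against young cells did not turn under any alternative, and 0 of the other 6 members were called under any.

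Labels give the ages the same replicate numbers, but same-numbered arrays deviated from their age means with correlations of -0.48 to 0.26, so the numbers were not taken as pairs. With a replicate block, 2 members were called in aged and 2 in middle-aged against young cells. Counts over all genes moved more: 584 genes in aged against young cells became 976 with the array set as a term, 21 among arrays of set 2 and 388 without young array 3. In middle-aged against young cells 403 became 1153 with array weights, 717 with the 3' minus 5' covariate, 741 with the array set, 964 and 0 within sets 1 and 2, 194 with the block, and 155 to 458 with arrays left out. For the late minus the early step, 0 became 179 with array weights, 7 with the array set, and 0 to 1 with arrays left out. The array sets came from the leading component of these same values after age means were subtracted. A term for the set therefore takes out spread by construction, and the counts by array set are no independent check. The causes were not tested. Sets of 8 and 6 arrays leave fewer samples per age, with 1 middle-aged array in set 2.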
